A study of Mus musculus with 6 samples.

Results

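The genes described here are 35 mouse genes of cholesterol and fatty acid synthesis and of the control, transport and storage of sterols, taken by symbol from a table of 53700 genes. All 35 were found and all 35 passed the filter on low counts. They were read in 6 RNA sequencing libraries of bulk colon tumours. In 3 recovered APC-KI mice, doxycycline, given for 6 weeks at 100 mg/kg in the food, represses endogenous Tcf7l2 throughout the body. In 3 cachectic APC-WT mice, that is, mice with the wasting syndrome of advanced cancer, the same dose was given for 10 days and Tcf7l2 stays at its endogenous level. Genotype, time on doxycycline and cachexia state therefore cannot be told apart in this comparison. The labels do not give the age of the animals, the driver of the tumours or the promoter behind the repression. They also leave out the number of tumours per mouse. The p values set the group difference against the spread of these 6 samples within their groups. The comparison asks how tumours under Tcf7l2 repression in recovered animals differ from tumours of wasting animals.

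Cells make cholesterol from acetyl-CoA through mevalonate, isoprenoids and squalene, and fatty acids from acetyl-CoA through malonyl-CoA. The transcription factors SREBP1 and SREBP2 switch on both sets of enzymes when sterols in the endoplasmic reticulum run low. SCAP then carries them to the Golgi for cleavage, and INSIG proteins hold SCAP back when sterols are plentiful. Oxysterols act through LXR receptors, which raise the ABC transporters that export sterols. In the gut both the epithelium and macrophages use these genes.

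The libraries held 54895823 to 56825956 counts in APC-KI and 51777342 to 63921108 counts in APC-WT tumours. Tcf7l2, which encodes the Wnt pathway factor that the design represses, stood at 4.48, 6.90 and 5.34 CPM (counts relative to library size, scaled with TMM factors, edgeR) in APC-KI libraries and at 44.1, 43.8 and 35.6 CPM in APC-WT libraries. The labels' direction thus held in every library. Counts of Y-linked genes were present in APC-WT replicates 1 and 2 (19164 and 16055) and 0 in the other 4 libraries. Y-linked expression, which marks male tissue, is thus partly tied to the group and cannot be fully told apart from it. Of 8 pan-epithelial markers 4 were higher in APC-KI tumours and 0 lower, and their sum ran from 9879 to 11480 CPM in APC-KI and from 8036 to 9066 CPM in APC-WT. Epithelial markers were thus abundant in all 6 libraries. In bulk tumours, fewer cells of a type and less RNA per cell cannot be told apart.

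Promoter sequence is shown here for 5 enzymes of the cholesterol branch, because SREBP is known to act there together with NF-Y, the factor that binds CCAAT boxes. The stretches lie upstream of RefSeq start sites on build GRCm38.p6 and are written 5′ to 3′ on the gene's strand. Lss is from chr10:76531435-76531560 (plus strand), Msmo1 from chr8:64733579-64733748 (minus), Mvd from chr8:122443423-122443592 (minus), Ebp from chrX:8193513-8193682 (minus) and Hmgcs1 from chr13:119690181-119690350 (plus). Capitals mark CCAAT on either strand (ATTGG when it lies on the other strand) and, in Hmgcs1 only, also a match to the sterol regulatory element core TCACNCCAC.
Lss: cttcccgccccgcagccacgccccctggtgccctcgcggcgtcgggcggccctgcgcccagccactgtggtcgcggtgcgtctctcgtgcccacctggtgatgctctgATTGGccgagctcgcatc
Msmo1: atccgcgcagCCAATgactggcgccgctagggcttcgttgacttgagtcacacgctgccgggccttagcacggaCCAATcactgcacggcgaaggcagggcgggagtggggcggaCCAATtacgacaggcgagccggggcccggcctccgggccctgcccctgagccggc
Mvd: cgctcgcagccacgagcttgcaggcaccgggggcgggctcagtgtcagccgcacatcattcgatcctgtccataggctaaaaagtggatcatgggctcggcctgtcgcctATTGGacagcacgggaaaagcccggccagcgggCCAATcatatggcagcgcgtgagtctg
Ebp: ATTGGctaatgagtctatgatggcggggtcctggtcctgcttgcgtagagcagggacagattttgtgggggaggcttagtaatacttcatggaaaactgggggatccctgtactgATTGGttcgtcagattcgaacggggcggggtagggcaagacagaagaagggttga
Hmgcs1: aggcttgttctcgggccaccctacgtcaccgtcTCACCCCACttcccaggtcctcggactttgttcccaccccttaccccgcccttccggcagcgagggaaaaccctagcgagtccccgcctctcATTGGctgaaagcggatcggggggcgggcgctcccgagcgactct

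RefSeq windows of 300 bases (250 before and 50 after the start) were at hand for 27 of the 35 genes, in 37 windows. CCAAT was found in every one of the 13 cholesterol enzymes with a window, and in 13 of their 16 windows (81.25%). Of all 32851 windows 37.41% held it, and of the windows of genes tested here 37.12%. Counted per gene, 41.1% of all genes with a window and 42.1% of the tested genes with a window held it. It was found in 8 of 9 genes past the threshold and in 14 of 18 that did not pass, so it was frequent on both sides of the threshold. The GC box GGGCGG was in 81.25% of the windows of cholesterol enzymes and in 56.68% of those of tested genes. The sterol element core TCACNCCAC was in 1 of the 37 windows, that of Hmgcs1, against 1.24% of all windows. The TCF core ATCAAAG, which Tcf7l2 can bind, was in 0 of the 37 windows. It was in 3.73% of all windows and in 2.81% of those of tested genes. At shares this small, 37 windows are too few to show a lack of the motif. The direct repeat bound by LXR receptors was in 0 as well, against 0.02% of all windows. All motifs were searched on both strands, ATTGG and the GC box can share bases where they meet, and no match says only that these letters are not in these windows.

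Of the 35 genes, 9 were higher and 1 was lower in APC-KI tumours (edgeR quasi-likelihood test, Benjamini-Hochberg adjusted p under 0.05 over 19127 genes). Among all genes tested 20.1% passed, 12.5% as higher and 7.63% as lower, so that the 25.7% of these genes called higher was above the share for all genes and the 2.86% called lower was below it. The median log2 change was 0.22 over the 35 genes and −0.02 over all genes tested. The cholesterol enzymes carried most of the calls, with 6 higher and 1 lower of 16, and 14 of the 16 had a positive log2 change. The fatty acid enzymes had 2 higher of 6, the SREBP regulators 1 higher of 5, and the 6 genes of sterol transport and LXR and the 2 of sterol esterification had 0 calls. At an unadjusted p under 0.05 the transport group had 3 genes (Abca1, Abcg1 and Stard4) and the esterification group 1 (Soat1), where 7234 of all 19127 genes tested did, so these counts are near the background. With DESeq2 the transport group had 0 calls and Soat1 was called lower. In 15 genes (42.9%) every APC-KI library was above every APC-WT library and in 6 (17.1%) below. Over all genes tested 44.5% did not overlap, 23% above and 21.5% below.

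**Figure D1:**
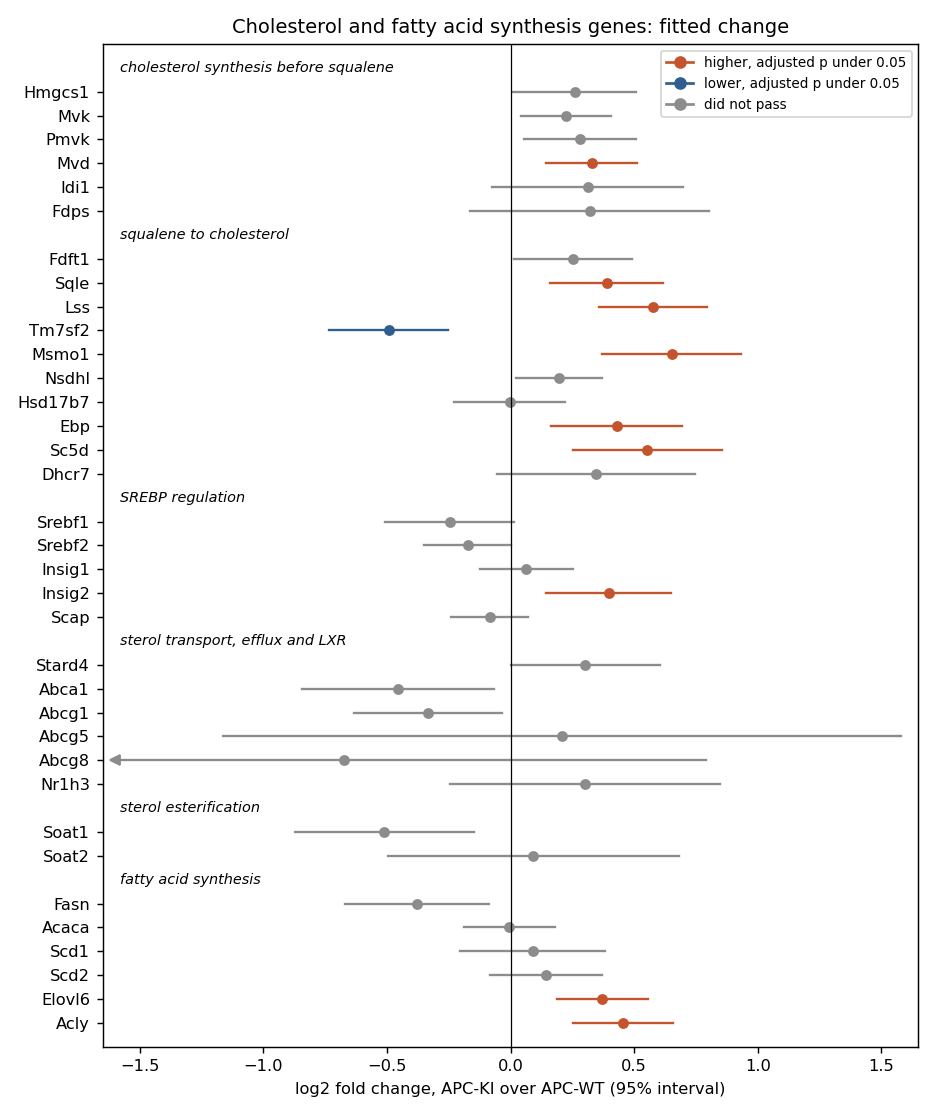
Fitted log2 fold change of each of the 35 genes (APC-KI over APC-WT, dots) with its 95% interval (lines), grouped by role. The 9 genes higher at an adjusted p under 0.05 are red and lie between 0.33 and 0.65, the single lower gene Tm7sf2 is blue at −0.49, and the interval of Abcg8 runs off the left edge.

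The first part of the cholesterol pathway makes isoprenoids from acetyl-CoA. Mvd, which decarboxylates mevalonate diphosphate, held 68.1, 64.8 and 61.1 CPM in APC-KI libraries, against 48.2, 53.4 and 52.9 CPM in APC-WT libraries. All 3 APC-KI libraries were above all 3 APC-WT libraries, and its fitted log2 change came to 0.33 ± 0.08 (SE, adjusted p = 0.0301). Hmgcs1, the synthase that makes HMG-CoA, held 353, 275 and 287 CPM in APC-KI and 254, 257 and 254 CPM in APC-WT libraries. The groups did not overlap, APC-KI replicate 1 stood apart from its group, and its log2 change, 0.26 ± 0.11, was short of the threshold (adjusted p = 0.123). Mvk and Pmvk, the kinases that phosphorylate mevalonate in turn, had log2 changes of 0.22 and 0.28 and adjusted p values of 0.082 and 0.0801. Idi1, which isomerizes isopentenyl diphosphate, and Fdps, which makes farnesyl diphosphate, overlapped between the groups (0.31 and 0.32, adjusted p = 0.204 and 0.288).

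The level of Fdps is uncertain. It averaged 8.998 ± 1.02 CPM in APC-KI and 7.21 ± 1.56 CPM in APC-WT libraries (SD, n = 3 each), or 2.14 and 1.71 CPM per kilobase of exon, next to the lowest level of the 35. The length counts all annotated exons together, 4.208 kb for Fdps, while its longest coding transcript has 1382 bases. The rank therefore depends on the length used. In GENCODE M21 another gene model, Gm43738, shares 26.7% of the exon bases of Fdps on the same strand. In all, 5 models match the coding transcript of Fdps at 95% identity or more over at least 300 bases. Those models held 155 counts in the 6 libraries together, against 2702 for Fdps. The sources used here do not say how the counter treated shared reads.

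The steps from farnesyl diphosphate to cholesterol held 5 of the 9 increases. Msmo1, a sterol methyl oxidase that helps to remove the C4 methyl groups, had the largest log2 change of the 9, at 0.65 ± 0.12 (SE, adjusted p = 0.0151). It stood at 174, 153 and 132 CPM in APC-KI and 89.8, 96.1 and 106 CPM in APC-WT libraries. Lss, the synthase that folds oxidosqualene into lanosterol, was next with 75.7, 69.8 and 61.0 CPM in APC-KI and 46.0, 47.0 and 45.6 CPM in APC-WT libraries. Its APC-WT libraries lay close together, and the log2 change was 0.57 ± 0.09 (adjusted p = 0.0108), which is 1.49-fold.

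Sc5d, the desaturase that places the C5 double bond, held 131, 112 and 105 CPM in APC-KI and 67.5, 82.5 and 87.4 CPM in APC-WT libraries (log2 change 0.55 ± 0.13, SE, adjusted p = 0.0278). Ebp, the isomerase that moves the ring double bond, held 64.5, 64.3 and 51.9 CPM in APC-KI and 45.9, 47.4 and 40.9 CPM in APC-WT libraries (0.43 ± 0.11, adjusted p = 0.0392). Sqle, the epoxidase that opens the sterol branch, held 152, 126 and 131 CPM in APC-KI and 96.0, 107 and 109 CPM in APC-WT libraries (0.39 ± 0.10, adjusted p = 0.0345). In each of these 3 enzymes every APC-KI library was above every APC-WT library, and APC-KI replicate 1 was the highest of the 6.

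Tm7sf2, a sterol C14 reductase, was the single gene that fell. It stood at 29.1, 29.6 and 34.5 CPM in APC-KI and at 47.3, 42.9 and 41.0 CPM in APC-WT libraries, with no overlap (log2 change −0.49 ± 0.10, SE, adjusted p = 0.0216). The neighbouring gene Vps51 covers 12.1% of the exon bases of Tm7sf2 on the same strand. Vps51 averaged 33.4 ± 3.34 CPM in APC-KI and 40.6 ± 1.32 CPM in APC-WT libraries (SD, n = 3 each), and its difference, −0.28 on the log2 scale, was short of the threshold (adjusted p = 0.0819). The part of shared reads in the value of Tm7sf2 was not tested.

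The other 4 enzymes of this branch did not pass. Fdft1, which joins farnesyl units into squalene, and Nsdhl, a C4 decarboxylating dehydrogenase, did not overlap between the groups and had log2 changes of 0.25 and 0.20 (adjusted p = 0.115 and 0.103). Fdft1 held 179, 156 and 159 CPM in APC-KI and 123, 143 and 149 CPM in APC-WT libraries. It shares 18.3% of its exon bases with the abundant Ctsb on the other strand, and without a stated strand setting these reads cannot be told apart. Ctsb averaged 709 ± 87.5 CPM in APC-KI and 541 ± 77.4 CPM in APC-WT libraries (SD, n = 3 each), with no overlap. Its log2 change, 0.39, was short of the threshold (adjusted p = 0.0812). The part of shared reads in the value of Fdft1 was not tested. Dhcr7, the last reductase of one route, overlapped at 0.34 ± 0.17 (SE, adjusted p = 0.182), and moved with the libraries used. It passed without APC-WT replicate 3 (0.53, adjusted p = 0.0338), was 0.20 without APC-WT replicate 1 (adjusted p = 0.352) and was 0.024 with the 4 libraries that lack Y-linked counts (adjusted p = 0.936). Hsd17b7, a C3 ketoreductase, held 42.7, 36.1 and 37.0 CPM in APC-KI and 39.8, 36.5 and 39.9 CPM in APC-WT libraries. Its log2 change was −0.004 with a 95% interval of −0.23 to 0.22.

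**Figure D2:**
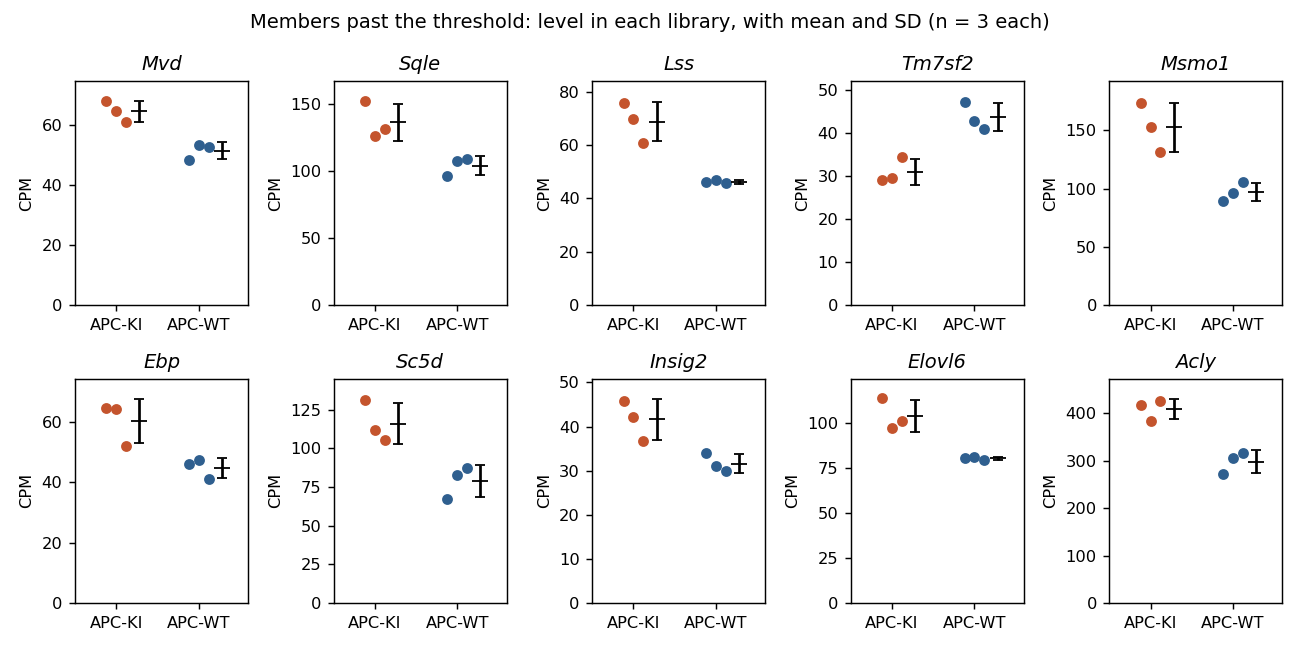
Level in CPM (axes from 0) of the 10 genes past the threshold in each library, APC-KI in red and APC-WT in blue, with the mean and SD beside the points (n = 3 each). Every APC-KI library lies above every APC-WT library in 9 genes and below it in Tm7sf2.

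The 16 cholesterol enzymes together summed to 1581, 1365 and 1323 CPM in APC-KI and to 1071, 1155 and 1175 CPM in APC-WT libraries. The ratio of the means was 1.26, and the groups did not overlap. The sum of the 8 pan-epithelial markers had the same ratio of means at this rounding, 1.26, over the same libraries. The single markers did not move alike. Their ratios ran from 0.86 for Krt18, the only one with a negative log2 change, to 1.51 for Vil1. Set against those markers in each library, a scale chosen after the data were seen, the enzyme sum was 13.8, 12.6 and 13.4% of the marker sum in APC-KI and 13.3, 13.8 and 13.0% in APC-WT libraries. On that scale the ratio of the means was 0.99 and the groups overlapped. With each gene divided by the geometric mean of the markers, 3 of the 9 higher genes, Lss, Msmo1 and Sc5d, still had every APC-KI library above every APC-WT library, and 6 overlapped. Over all 35 genes, 3 were then above in every APC-KI library and 10 below, against 15 and 6 on the CPM scale. The 10 were Tm7sf2, Hsd17b7, Srebf1, Srebf2, Scap, Abca1, Abcg1, Soat1, Fasn and Acaca. The geometric mean of the markers was itself 1.22 times as high in APC-KI, so this scale lowers every gene in APC-KI relative to APC-WT. The share over all genes was not computed on this scale, so these counts cannot be set against a background.

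**Figure D3:**
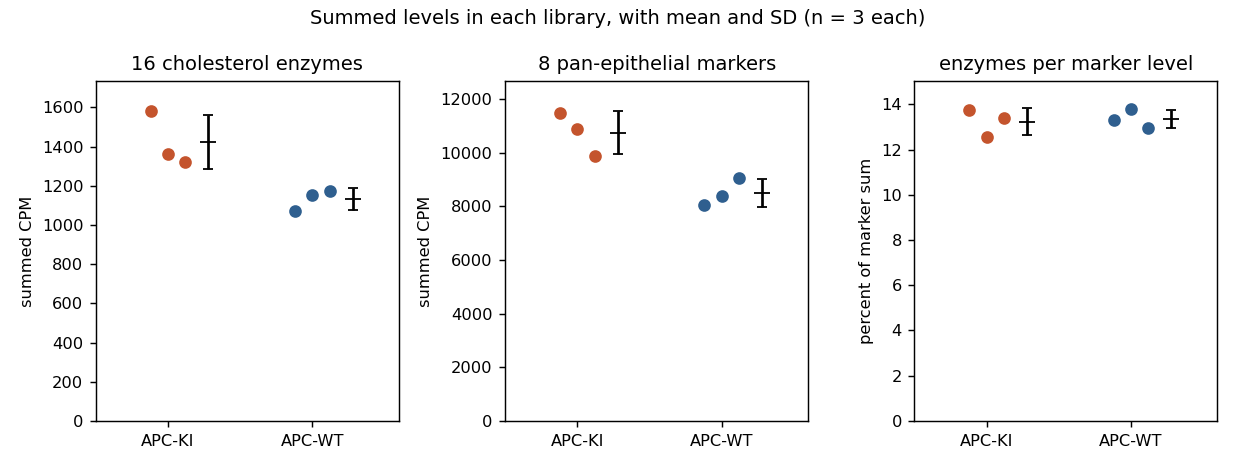
Summed level of the 16 cholesterol enzymes (left, CPM), of the 8 pan-epithelial markers (middle, CPM) and the first as a percent of the second (right) in each library, with mean and SD (n = 3 each). The first pair of panels shows APC-KI above APC-WT, while the percentages overlap between 12.6 and 13.8.

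Markers of other cell types also moved between the groups. Of 8 absorptive colonocyte markers 5 were higher and 0 lower, with sums from 7584 to 8822 CPM in APC-KI and from 2069 to 2289 CPM in APC-WT. Lypd8 made up most of these sums, with means of 6480 CPM in APC-KI and 1636 CPM in APC-WT. Car4, Slc26a3 and Aqp8 overlapped between the groups. Of 8 smooth muscle markers all 8 were higher and of 8 fibroblast markers 3 were higher, with sums of 1000 to 1619 and 2830 to 3919 CPM in APC-KI and of 188 to 471 and 888 to 2436 CPM in APC-WT. B and plasma cell markers had 5 of 6 higher (3504 to 9620 CPM in APC-KI, 562 to 872 CPM in APC-WT), T cell markers 4 of 6 (25.1 to 40.8 CPM in APC-KI, 14.8 to 18.3 CPM in APC-WT) and endothelial markers 3 of 6 (263 to 333 CPM in APC-KI, 184 to 240 CPM in APC-WT). All 7 mast cell markers were lower (5.12 to 15.6 CPM in APC-KI, 130 to 865 CPM in APC-WT). Their part in the levels of the sterol and fatty acid genes was not tested. Hepatocyte markers had 2 of 6 higher (119 to 131 CPM in APC-KI, 57.7 to 121 CPM in APC-WT).

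The factors that switch the pathway on had lower means in APC-KI tumours, and neither passed. Srebf2, whose product mainly drives cholesterol enzymes, held 304, 308 and 316 CPM in APC-KI and 330, 374 and 343 CPM in APC-WT libraries. The groups did not overlap, and the log2 change was −0.17 ± 0.07 (SE, adjusted p = 0.133). With library totals only it passed as lower (−0.29, adjusted p = 0.0388). Srebf1, whose product mainly drives fatty acid enzymes, held 167, 157 and 203 CPM in APC-KI and 219, 211 and 196 CPM in APC-WT libraries, with overlap through APC-KI replicate 3 (−0.25 ± 0.11, adjusted p = 0.151). Without that library Srebf1 passed as lower (−0.37, adjusted p = 0.0318), and without APC-KI replicate 2 it was −0.17 (adjusted p = 0.377). Scap, the escort of SREBP, had a log2 change of −0.09 with a 95% interval of −0.24 to 0.07.

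The INSIG pair differed in its calls. Insig2, a retention protein of the endoplasmic reticulum, rose to 45.9, 42.3 and 36.7 CPM in APC-KI libraries, against 33.9, 31.0 and 29.9 CPM in APC-WT libraries (log2 change 0.40 ± 0.11, SE, adjusted p = 0.0439). Insig1, its relative and an SREBP target itself, held 60.2, 63.7 and 67.2 CPM in APC-KI and 58.5, 58.6 and 65.6 CPM in APC-WT libraries. Its log2 change was 0.06 with a 95% interval of −0.13 to 0.25, and the difference between both genes' changes was not tested.

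Of the 6 genes of sterol transport and LXR, 3 had a negative log2 change in APC-KI tumours, and 0 passed. Abca1, the transporter that loads cholesterol onto apolipoproteins, held 124, 149 and 168 CPM in APC-KI and 246, 176 and 184 CPM in APC-WT libraries. Abcg1, which exports cholesterol to mature lipoproteins, held 21.5, 26.9 and 26.6 CPM in APC-KI and 35.04, 30.4 and 29.0 CPM in APC-WT libraries. Neither pair of groups overlapped, APC-WT replicate 1 was the highest for both, and the log2 changes were −0.45 ± 0.16 and −0.33 ± 0.13 (SE, adjusted p = 0.0911 and 0.102). Nr1h3, the LXR alpha receptor that raises both, held 10.05, 15.97 and 11.2 CPM in APC-KI and 7.92, 10.8 and 11.4 CPM in APC-WT libraries (0.30 ± 0.23, adjusted p = 0.37). Stard4, a carrier of sterol between membranes, was at 0.30 ± 0.13 (adjusted p = 0.132). It passed without APC-KI replicate 3 (0.40, adjusted p = 0.0432) and was 0.16 without APC-KI replicate 1 (adjusted p = 0.296).

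Macrophages are a known site of these transporters. Of 8 macrophage markers 2 were higher (Cd14 and Itgam) and 0 lower, with sums of 552, 760 and 592 CPM in APC-KI and 405, 399 and 497 CPM in APC-WT libraries. The part of macrophages in the levels of the transporters was not tested.

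Abcg5 and Abcg8, the paired half-transporters that return sterols to the gut lumen, varied most among the 35 genes. Abcg5 held 16.5, 10.8 and 23.2 CPM in APC-KI and 25.6, 13.1 and 5.03 CPM in APC-WT libraries. Abcg8 held 6.65, 5.51 and 10.6 CPM in APC-KI and 22.1, 10.4 and 3.72 CPM in APC-WT libraries. Within each group both genes kept the same order of libraries, and the 95% intervals of the log2 change were wide, at −1.16 to 1.58 and −2.14 to 0.79. The ratio of Abcg5 to Abcg8 was 2.49, 1.97 and 2.19 in APC-KI and 1.16, 1.26 and 1.35 in APC-WT libraries, so that the ratio separated the groups while neither gene did. The pair overlaps over 82 exon bases on opposite strands, and the ratio was singled out after its values were seen. Small intestinal enterocyte markers summed to 29.7, 20.8 and 5.69 CPM in APC-KI and 3.45, 2.76 and 7.24 CPM in APC-WT libraries, with Rbp2 the single one of 8 that was higher and Apoa1, Apoa4 and Sis too low to test. Their part in the levels of the pair was not tested.

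For storage, Soat1, the enzyme that esterifies cholesterol in most tissues, held 90.7, 88.1 and 100 CPM in APC-KI and 162, 129 and 106 CPM in APC-WT libraries. The groups did not overlap, and its log2 change, −0.51 ± 0.15, was short of the threshold (SE, adjusted p = 0.0573). It passed without APC-WT replicate 3 (−0.65, adjusted p = 0.0174) and with DESeq2, upper-quartile factors, library totals only or no filter (adjusted p = 0.0186 to 0.0478). Without APC-WT replicate 1 it was −0.34 (adjusted p = 0.0929), and with the 4 libraries that lack Y-linked counts −0.20 (adjusted p = 0.396). Soat2, the form of intestine and liver, stood at 3.71 ± 0.625 CPM in APC-KI and 3.48 ± 0.799 CPM in APC-WT libraries (SD, n = 3 each).

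**Figure D4:**
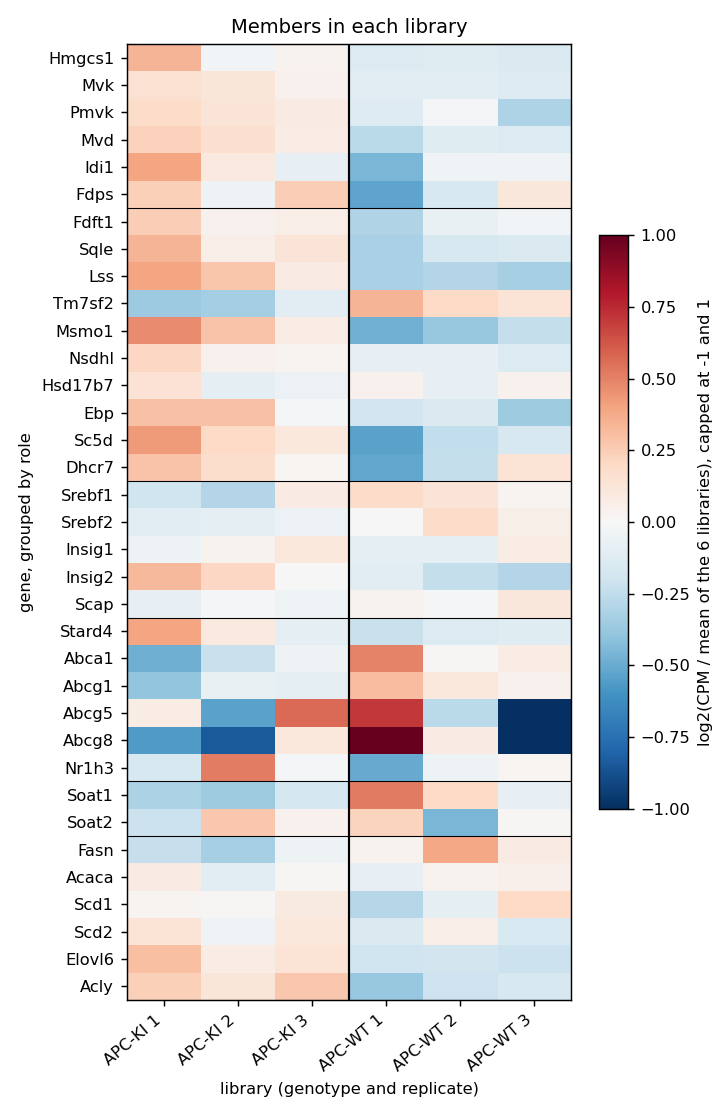
Level of each gene in each library as log2 of CPM over the mean of the 6 libraries, with colours capped at −1 and 1, genes grouped by role and APC-KI libraries on the left. Most cholesterol enzymes are red in APC-KI and blue in APC-WT libraries, while Abcg5 and Abcg8 vary most and are at the lower cap in APC-WT replicate 3.

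In the fatty acid branch the source of acetyl-CoA and an elongase rose and the synthase did not. Acly, which splits citrate into cytosolic acetyl-CoA for both pathways, held 417, 385 and 425 CPM in APC-KI and 272, 307 and 317 CPM in APC-WT libraries (log2 change 0.46 ± 0.09, SE, adjusted p = 0.0168). Elovl6, which lengthens palmitate to stearate, held 113, 96.8 and 101 CPM in APC-KI and 80.3, 81.1 and 79.4 CPM in APC-WT libraries (0.37 ± 0.08, adjusted p = 0.0223). In both genes every APC-KI library was above every APC-WT library. Fasn, the synthase that builds palmitate, had a lower mean, at 466, 436 and 527 CPM in APC-KI and 561, 716 and 580 CPM in APC-WT libraries. Its groups did not overlap, and its log2 change, −0.38 ± 0.12, was short of the threshold (adjusted p = 0.0707), although it passed with DESeq2 and with library totals only.

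Acaca, the carboxylase that makes malonyl-CoA, had a log2 change of −0.005 with a 95% interval of −0.19 to 0.18. The desaturases Scd1 and Scd2, which turn stearate into oleate, had intervals of −0.20 to 0.38 and −0.08 to 0.37. Scd2 held 1759, 1565 and 1724 CPM in APC-KI and 1448, 1678 and 1445 CPM in APC-WT libraries, and Scd1 held 147, 146 and 154 CPM in APC-KI and 119, 135 and 166 CPM in APC-WT libraries. Per kilobase of exon, the level of Scd2 was 10.1 ± 0.55 times that of Scd1 in APC-KI and 9.94 ± 1.85 times in APC-WT libraries (SD, n = 3 each). The excess of Scd2 was thus present in both groups. The coding transcripts of the pair are 95.5% identical over 623 aligned bases, so some reads may be split between them.

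Adipocyte markers were checked because fat cells are rich in the fatty acid enzymes. Of the 8, 4 were too low to test, Lep had 0 counts in all 6 libraries, and Adipoq had 4 counts over the APC-KI libraries and 4 over the APC-WT libraries. The sum of the 8 ran from 18.3 to 21.8 CPM in APC-KI and from 12.3 to 14.9 CPM in APC-WT, with Cidec and Plin4 higher. Fabp4, the most abundant of the 8, averaged 8.56 CPM in APC-KI and 6.399 CPM in APC-WT. The 6 fatty acid enzymes summed to 2739 to 3050 CPM in APC-KI and 2591 to 3038 CPM in APC-WT, and the part of fat cells in these levels was not tested.

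Levels can be set side by side only per length. On the scale of CPM per kilobase of exon, averaged over both groups, Scd2 led with 293, followed by Acly with 67.0, Hmgcs1 with 60.9 and Fasn with 50.03. Acly stood at 77.5 in APC-KI and 56.5 in APC-WT tumours, and Fasn at 43.5 in APC-KI and 56.5 in APC-WT tumours, so that Acly was above Fasn in APC-KI, with equal means in APC-WT at this rounding. The lowest levels on this scale were those of Soat2 (1.63), Fdps (1.93) and Abcg8 (2.62). The length counts all annotated exons of a gene together, and transcript lengths could give another order.

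**Figure D5:**
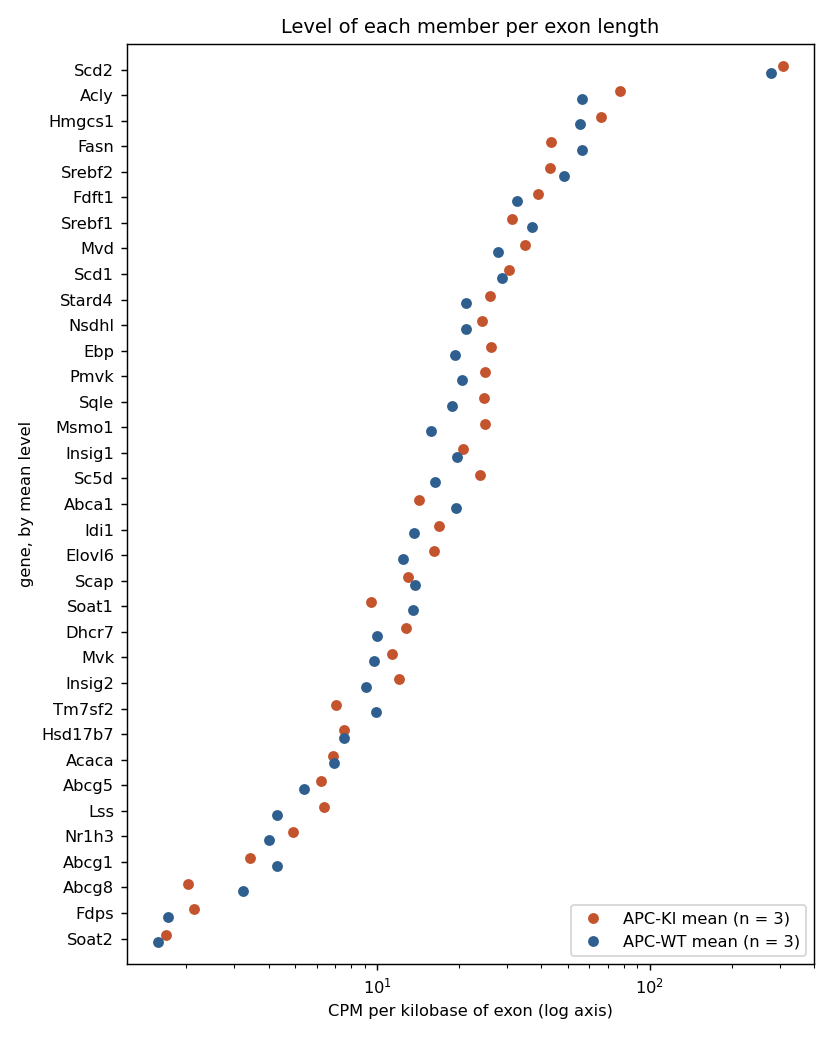
Mean level per exon length of each gene (CPM per kilobase of exon, log axis) in APC-KI (red) and APC-WT (blue) tumours (n = 3 each), ordered by the mean of both groups. Scd2 stands at 308 in APC-KI and 279 in APC-WT, and Soat2 is lowest at 1.68 in APC-KI and 1.57 in APC-WT.

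A wider list of 46 genes of the same pathways held 8 higher and 3 lower, or 17.4% and 6.52% of the list. Over all genes tested the shares were 12.5% and 7.63%, so those of the list were near the background. The median log2 change of the list was close to 0, with 23 positive and 23 negative values. The clearest was Acss2, the cytosolic enzyme that makes acetyl-CoA from acetate. It stood at 75.6, 52.4 and 49.5 CPM in APC-KI and 25.5, 25.3 and 27.98 CPM in APC-WT libraries, a 2.25-fold difference (log2 change 1.17 ± 0.17, SE, adjusted p = 0.00852). Acly and Acss2, which both supply cytosolic acetyl-CoA, were thus higher in APC-KI tumours. Slc25a1 and Me1, listed with Acss2 under fatty acid supply, did not pass (log2 changes −0.006 and 0.18, adjusted p = 0.962 and 0.743).

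The other increases with the smallest p values were in varied steps. Elovl1, an elongase of very long fatty acids, was 1.33-fold higher, Erlin1, which binds cholesterol in the endoplasmic reticulum, 1.68-fold, Nus1, a subunit of the enzyme that makes dolichol, 1.57-fold, and Acacb, the mitochondrial acetyl-CoA carboxylase, 1.61-fold. Ch25h, which makes 25-hydroxycholesterol, an oxysterol of immune cells, stood at 4.90 ± 0.970 CPM in APC-KI and 2.28 ± 0.444 CPM in APC-WT libraries (SD, n = 3 each). Mbtps2, the protease that makes the second cut of SREBP, was lower, at 34.7, 30.4 and 34.9 CPM in APC-KI and 46.8, 43.6 and 41.3 CPM in APC-WT libraries (log2 change −0.40 ± 0.09, SE, adjusted p = 0.029). Thrsp, a lipogenic nuclear protein, was lower too, at 0.35, 0.63 and 0.57 CPM in APC-KI and 1.11, 1.39 and 1.98 CPM in APC-WT libraries. The remaining calls of the list had larger p values. Mbtps1, also listed under SREBP processing, was lower (log2 change −0.28 ± 0.08, SE, adjusted p = 0.0445). Acat2 and Acsl5 were 1.31-fold and 1.34-fold higher (adjusted p = 0.0379 and 0.0426). Of the 14 genes of LXR and sterol handling, Ch25h was the only call, and Mylip, an LXR target, had a log2 change of −0.69 (adjusted p = 0.0612).

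The number of calls moved with the libraries used. Without APC-KI replicate 1, 2 genes of the 35 were higher, without APC-KI replicate 2, 3 were, without APC-WT replicate 1, 3 were and without APC-WT replicate 2, 1 was, each with 0 lower. Of all genes tested, 6.48%, 7.02%, 12.6% and 5.91% passed in these fits, in that order and in either direction. The counts of these genes were thus near the background there. Without APC-KI replicate 3, 10 were higher and 2 lower, and without APC-WT replicate 3, 8 and 2. There 20% and 19.5% of all genes tested passed. Lss alone passed in each of the 6 fits that leave out a library (largest adjusted p = 0.049), Msmo1 and Acly passed in 4, Elovl6 in 3, Mvd, Sqle, Sc5d and the lower gene Tm7sf2 in 2, and Ebp and Insig2 in 1. With the 4 libraries that lack Y-linked counts, which leaves 1 APC-WT library, 0 of the 35 genes passed where 1.62% of all genes did. The median log2 change of the 35 genes was then 0.18 and the 10 called genes kept their sign, which the shared libraries largely fix. With library totals in place of TMM factors the median of all genes shifted to −0.13, and 5 of the 35 were higher and 4 lower. Under that scaling 41.0% of all calls were higher, against 62.1% with TMM factors.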

How the data were processed

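Per the labels' protocols, tumour RNA was treated with DNase and sequenced from TruSeq Stranded mRNA libraries. The submitters' processing notes name STAR, DESeq2 1.37.6, cutadapt 2.5, Trim Galore 0.6.4 and the builds GRCm38 and mm10. The sources used here give no counter, strand setting or annotation release. The authors deposited raw counts per Ensembl gene, per the file headers and values.

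Symbols came from GENCODE M21, which named 52093 of 53700 identifiers. Identifier versions matched M21 in 35 cases only, and M21 therefore gave names, exon lengths, overlaps and copies alone. Groups came from the titles. Genes were kept with filterByExpr, scaled with TMM and tested with edgeR 4.0.16 (robust glmQLFit, glmQLFTest) in R 4.3.3, with group as the sole term and APC-KI over APC-WT as the fold change. The SE is the log2 change over the root of F. No 2 libraries of a group agreed within sampling noise (36.4 to 104.3 as chi-square over genes). The steps were checked on simulated counts. Alternatives were DESeq2 1.42.0 (run here), limma-voom (limma 3.58.1), other factors, other filters, the replicate block, libraries left out and Y-linked counts. The marker scale was added after the data were seen.

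The genes, lists and tests were chosen with earlier results of these data known. Values per library are given for each gene past the threshold, for Srebf1, Srebf2, Nr1h3 and the 6 most abundant of the rest, and for up to 8 other pathway genes with the smallest p. Values of Hsd17b7, Insig1, Abcg1, Abcg5, Abcg8, Soat1 and Mylip, and the Hmgcs1 promoter, were added after values were seen. So were those of Ctsb, Slc25a1, Me1, Mbtps1, Acat2 and Acsl5. Protein identities planned at the start were not computed. Promoters came from RefSeq (GRCm38.p6).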

Additional observations from a re-analysis of the deposited data

How the results depend on the processing

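The 10 calls among the 35 genes were each made again with limma-voom, RLE factors, upper-quartile factors, no filter, the stricter filter (CPM above 1 in at least 3 libraries) and DESeq2, which added Mvk as higher and Soat1 and Fasn as lower. Calls of higher genes fell from 9 to 5 with library totals only, to 0 with the libraries without Y-linked counts and to 0 with those counts as a covariate, and ran from 1 to 10 when a library was left out. Lower calls were 3 with DESeq2, 2 with upper-quartile factors, 4 with library totals only, 2 with no filter, 0 in both fits for Y-linked counts, and 0 to 2 when a library was left out, against 1. Of the 46 other pathway genes 8 were higher and 3 lower. Higher calls there were 0 in both fits for Y-linked counts and 1 to 7 when a library was left out. Lower calls were 7 with DESeq2, 8 with library totals only, 1 in both fits for Y-linked counts and 0 to 5 when a library was left out. Over all genes, 2388 higher and 1459 lower calls became 178 and 152 without the libraries with Y-linked counts, and 220 and 195 with those counts as a covariate. Lower calls were 2388 with DESeq2 and 2844 with library totals only. When a library was left out they ran from 788 to 2542 higher and from 300 to 1595 lower. The cause of these shifts was not tested.

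With the replicate number of the titles as a block, 1195 genes were higher and 465 lower, 2 of the 35 were higher and 0 lower, and 3 of the 46 other genes were higher and 1 lower. Same-numbered libraries did not deviate together (r = 0.035, −0.068 and −0.182 across genes), so the numbers were not taken as pairs.

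No called gene changed sign in the 16 alternatives, and 7 of the genes that did not pass did. When a library was left out, Hsd17b7 ran from −0.0805 to 0.0462, Abcg5 from −0.20 to 0.89, Abcg8 from −1.10 to 0.10, Soat2 from −0.0803 to 0.247, Acaca from −0.0483 to 0.0469 and Scd1 from −0.0174 to 0.228. With library totals only, Insig1 was −0.0496, Soat2 −0.0229 and Scd1 −0.0244. Without the libraries with Y-linked counts Insig1 was −0.0465, Abcg8 1.02 and Scd1 −0.16, and with the covariate they were −0.0438, 1.03 and −0.15. The ratio of the summed cholesterol enzymes was 1.26 on the CPM scale and 0.99 per pan-epithelial marker sum. The gene with the fewest counts, Soat2, had 1219 in the 6 libraries together.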
